A study of Mus musculus with 2 samples.

Results

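The megabases of the mouse autosomes with the most Hmga2 peaks are described here, for all autosomes except chromosome 14. Each peak of the deposited list was assigned by its centre to fixed bins of 1 Mb, and a bin with 30 or more peaks was called dense. The rule was met by 171 of 2299 bins (7.44%), which together held 6256 peaks out of 32094 on these autosomes (19.5%) and out of 34597 in the list. Since the count per bin chose the members, the counts below are a description and not a finding. Pileup, length, fold, q and background were not used by the rule directly. A peak is listed only where its pileup passes the peak caller's cutoff over background, so these values may not be independent of the count. They were compared between the 6256 members and the 25838 peaks of the other 2128 bins.

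Hmga2 is a small architectural protein of chromatin. It reaches into the minor groove of A+T-rich DNA with its AT-hooks, bends the DNA, and competes with the linker histone for the stretches between nucleosomes. In mammalian nuclei, long A+T-rich and gene-poor stretches are the ones most often found at the nuclear lamina. These points are background and were not measured in the peak list.

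The material was E14Tg2a, a line of mouse embryonic stem cells, grown with LIF and then induced into EpiLCs (epiblast-like cells) in medium with Activin A and bFGF, per the labels. The methods of the study instead describe iPSCs, wild type and Hmga2 knockout, induced into EpiSCs for this experiment. The labels give no Hmga2 genotype, whereas a figure legend of the study names wild-type EpiSCs as the source of the chromatin. Expression was not analysed here, so the cell type was not checked. The 2 libraries are 1 chromatin immunoprecipitation with an antibody against Hmga2 and 1 input from chromatin without antibody, which share cell line and treatment. Read totals were not among the values used, and the depth is unknown. A single ChIP library gives no spread between experiments, and therefore no test was made. Intervals below are 95% intervals (Wilson for a share, Newcombe for a difference of shares, exact Poisson for a number per Mb), and they cover counting error only: peaks from the same library do not replicate one another.

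Positions are given as in the list, with the first base numbered 1. The submitters' processing notes name mm9 as the build. No genome of that build was used here, so neither sequence nor genes are given for any region.

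Bins were first ordered by their number of peaks. The median bin outside the dense set held 11 peaks (quartiles 7 and 16), and 26 bins held none. Dense bins held a median of 35 peaks (quartiles 32 and 40), and the fullest held 55. The counts ran on without a break at the threshold, since 24 bins had exactly 30 peaks and 23 bins had 29. Only 45 dense bins reached 40 peaks, and 6 reached 50. The dense set is therefore the upper end of a continuous range and not a separate class of bins.

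**Figure D1:**
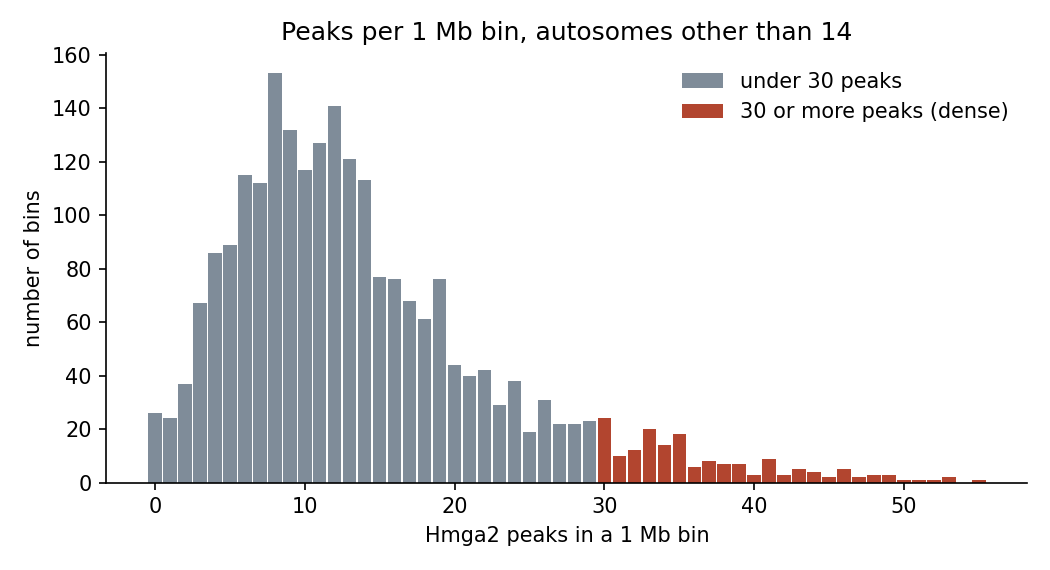
Number of 1 Mb bins (vertical axis) by the number of Hmga2 peaks they held (horizontal axis), for 2299 bins of the autosomes other than 14; grey bars are bins under 30 peaks and red bars the 171 dense bins. The bars fall off to the right without a gap at 30 peaks, and the last one stands at 55.

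Dense bins were unequally shared among the autosomes. They were found on 17 of the 18 autosomes examined, and chromosome 19, whose fullest bin had 24 peaks, held none. Chromosome 16 had the highest share of its peaks in dense bins, 39.4% (37.1% to 41.7%), in 17 of 95 bins. Chromosomes 15 (34.3%), 5 (32.5%) and 8 (31.4%) followed, and their intervals overlapped one another. Chromosome 3 had the most dense bins, 20, and chromosome 1 had the most members, 685 peaks in 19 bins. At the other end, chromosome 6 had only 3 dense bins among 147 (4.79% of its peaks), although it carried 13.5 peaks per bin, close to the 13.2 of chromosome 5 with its 17 dense bins. These 2 chromosomes thus had a like number of peaks per bin but a different degree of crowding. Chromosomes 7 and 11 had 2 dense bins and 1 dense bin.

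**Figure D2:**
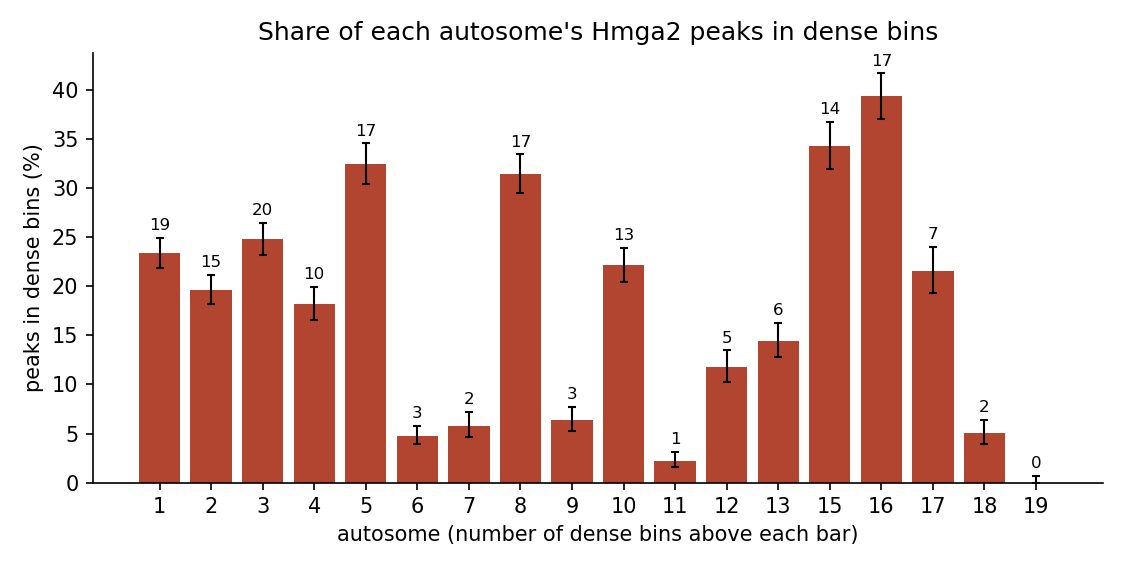
Percent of each autosome's Hmga2 peaks that lay in dense bins (vertical axis) by autosome (horizontal axis); error bars are 95% Wilson intervals for counting error, and the number above each bar is its number of dense bins. Chromosomes 16, 15, 5 and 8 stand above 30%, whereas 6, 7, 9, 11 and 18 stay under 7% and 19 is at 0.

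Along the chromosomes, dense bins were less frequent toward both ends. When the bins of each autosome were divided into 5 equal parts, counted from the start of the chromosome, 5.86% of bins were dense in the first part (4.06% to 8.39%), 8.26% in the second, 9.63% in the third, 10.2% in the fourth (7.77% to 13.3%) and 3.25% in the last (1.98% to 5.30%). The intervals of the fourth and the last part did not overlap, while those of the first and the fourth did.

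Most dense bins had a dense neighbour. Of the 171 dense bins, 116 lay next to another one (67.8%, 60.5% to 74.4%), and they formed 94 runs in all. There were 55 isolated bins, 19 runs of 2 bins, 8 of 3, 7 of 4, 4 of 5 and 1 of 6. The 20 runs of 3 or more bins held 78 bins and 2968 peaks, which is 47.4% of the members. In 16 places a single bin under the threshold separated 2 dense bins, and these interposed bins held a median of 24 peaks (11 to 29).

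The longest run was on chromosome 5 from 57000001 to 63000000. Its 6 bins held 43, 33, 46, 40, 43 and 33 peaks, 238 in all, and the bins just before and after it held 23 and 18. No bin of this run stood far above the rest. The second run, on chromosome 16 from 65000001 to 70000000, held 211 peaks and was the most crowded of the 8 longest, with 42.2 peaks per Mb. Its bins had 33, 34, 55, 50 and 39 peaks, and so the crowding had a clear centre, with the fullest bin of all at 67000001 to 68000000.

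A run of 5 bins on chromosome 8, from 51000001 to 56000000, held 208 peaks with 53 in its fullest bin. One on chromosome 4, from 26000001 to 31000000, held 207 peaks with 34 to 49 per bin. The run of 5 bins on chromosome 3, from 45000001 to 50000000, was the thinnest of these, with 176 peaks or 35.2 per Mb. Across the 8 longest runs the density varied only from 35.2 to 42.2 peaks per Mb. The remaining ones, of 4 bins each, were on chromosome 13 from 86000001 to 90000000 (156 peaks), on chromosome 15 from 45000001 to 49000000 (155 peaks) and on chromosome 10 from 100000001 to 104000000 (148 peaks).

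On either side of these 8 runs the fall was of different steepness. The run on chromosome 4 dropped from 42 peaks in its last bin to 11 in the next, and that on chromosome 3 from 30 to 13. In contrast, the run on chromosome 15 was bordered by 27 peaks on both sides. The 8 runs differed more in length than in pileup. Their median pileup lay between 5.92 and 6.31 and their median length between 183 and 247 bp, and each held 4 to 8 peaks with a q under 1e-05. The median of the run on chromosome 16, 183 bp, was close to the 184 bp of the bins outside the dense set.

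The 5 fullest bins were on chromosomes 16, 8 and 10. After the one on chromosome 16 with 55 peaks came chromosome 8 at 52000001 to 53000000 and chromosome 10 at 101000001 to 102000000, with 53 each. They were followed by chromosome 16 at 74000001 to 75000000 with 52 and chromosome 8 at 61000001 to 62000000 with 51. The fullest one had no peak with a pileup of 10 or more, its highest being 9.86, and its median pileup was 5.94. The bin on chromosome 8 with 51 peaks had the highest median of the 5, 6.86, with 4 peaks at a q under 1e-05.

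The peaks of dense bins were on average lower than those of other bins, although high peaks were more frequent per Mb, in part by the rule. Pileup is the number of overlapping ChIP fragments as the authors' peak caller MACS2 gave it, averaged over the length of the peak, and no peak of the list was below 5. The median pileup of the members was 6.09 (quartiles 5.47 and 7.07), compared with 6.41 (5.60 and 7.70) in other bins. A pileup of 10 or more was reached by 271 members (4.33%, 3.85% to 4.86%), compared with 7.86% of all peaks of these autosomes and 8.72% of the peaks in other bins (8.38% to 9.07%). The difference was -4.39 percentage points (-4.98 to -3.76), and it was -1.99 against bins within 2 Mb of a dense bin and -2.09 when as many bins were chosen on peaks with a fold of at least 4. Per Mb, such high peaks numbered 1.58 in dense and 1.06 in other bins, a ratio of 1.497 (1.32 to 1.70). Their lower share thus stands beside a larger number of low peaks, which the rule selects. High peaks also counted toward the choice of bins, so a part of this ratio is built in. No choice of bins without them was made. The upper tail differed most. The 90th percentile was 8.39 in dense bins and 9.69 in others, while the 10th percentiles, 5.07 and 5.14, both lay near the lowest pileup of the list.

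At the same time the peaks of dense bins were longer. The median was 205 bp (quartiles 143 and 324) in dense bins and 184 bp (139 and 283) in others. A length of 500 bp or more was found for 339 members (5.42%, 4.88% to 6.01%), compared with 3.58% of all peaks and 3.13% of the peaks in other bins (2.93% to 3.35%). The shortest length of the list, 134 bp, was less frequent among members, 18.9% (17.9% to 19.9%) compared with 20.7% of all peaks and 21.2% in other bins. Against bins within 2 Mb of a dense bin alone, however, the interval of this last difference included 0 (-1.44 percentage points, -2.90 to 0.0053). Members were thus both lower and wider, measures that are not independent, since the pileup is a mean over the peak. Both directions were seen on each of the 17 chromosomes that had dense bins: the median pileup was lower and the median length higher in dense bins on all 17.

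**Figure D3:**
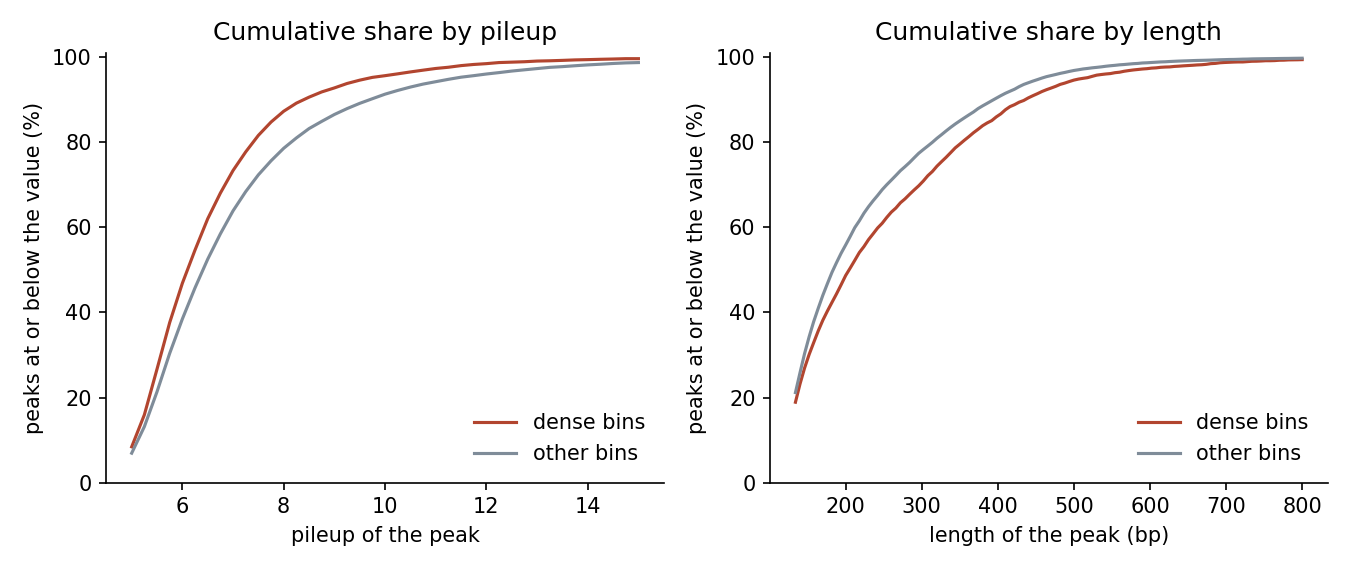
Cumulative percent of peaks (vertical axes) by pileup (left) and by length in bp (right) for the 6256 peaks of dense bins (red) and the 25838 peaks of other bins (grey). The red curve lies above the grey one for pileup, with medians of 6.09 and 6.41, and below it for length, with medians of 205 and 184 bp.

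The largest gaps in median pileup were on chromosomes 7 (5.72 in dense, 6.65 in other bins), 11 (5.92 and 6.61) and 6 (5.75 and 6.38), which together had only 6 dense bins. On the 12 chromosomes with 5 or more dense bins the gaps were smaller, from 6.12 against 6.31 on chromosome 12 or 6.10 against 6.29 on chromosome 3 to 6.04 against 6.47 on chromosome 17. Chromosome 8, which had the highest median of these 12 in other bins, had 6.23 and 6.60.

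Dense bins also differed among themselves. The median pileup of single dense bins ran from 5.52 to 7.24 (quartiles 5.93 and 6.33), and the median length from 149 to 285 bp (188 and 223). These spreads are as wide as the differences between dense and other bins or wider. The share of peaks at the lowest background, described next, ran from 3.33% to 80.5% over single dense bins. Over the 171 dense bins the number of peaks and the median pileup had a Spearman rho of -0.01, and the number of peaks and the median length one of 0.07. Over all 1458 bins with 10 or more peaks the correlations were -0.27 and 0.20. These values describe bins of 1 library, which share its depth and its caller settings.

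The background differed between dense and other bins as well. For each peak the background is the number of fragments the caller expected from the input, and it can be computed back from pileup and fold. It has a floor, 0.843 fragments in this list, which applies wherever the input near the peak is not above the genome-wide level. A background within 1% of this floor was found for 3167 members (50.6%, 49.4% to 51.9%), compared with 44.4% of all peaks and 42.9% of the peaks in other bins (42.3% to 43.5%). Input near the members was thus more often at or below the genome-wide level. The difference of 7.73 percentage points (6.35 to 9.11) was 5.00 (3.17 to 6.82) against bins within 2 Mb of a dense bin. The share was higher in dense bins on 16 of 17 chromosomes, the exception being chromosome 9 with 3 dense bins (37.6% and 41.9%). On chromosome 8 both values were low, 41.9% and 33.8%. Over the 171 dense bins the number of peaks and the share at the floor had a Spearman rho of 8.1e-05. Over the 1458 bins with 10 or more peaks it was 0.12.

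Pileup and length were then compared among peaks at the floor alone. There a pileup of 10 or more was found for 3.22% of 3167 members and 4.62% of 11083 other peaks, a difference of -1.40 percentage points (-2.09 to -0.63). Above the floor the difference was -6.33 percentage points (-7.25 to -5.33). The difference in height thus kept its direction at the floor, where the caller's background is alike, but was much smaller there. The input itself can still differ below the floor. Peaks at both the floor and the shortest length are alike in the caller's background and in length. Their median pileup was 5.84 in 751 members and 5.95 in 2930 other peaks, a smaller gap than over all peaks. For length, the median at the floor was 192 bp in dense and 173 bp in other bins, and the difference in the shortest length was -2.72 percentage points (-4.39 to -1.01). The difference in peaks of 500 bp or more was smaller at the floor, 1.11 percentage points (3.22% and 2.11%), than above it, 3.77.

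The fold over background reached 4 in 2005 members (32.05%), compared with 37.3% of all peaks and 38.5% in other bins. This share was thus lower in dense bins, like that of high pileup. It too stands beside the larger number of low peaks that the rule selects, and it is not a number per Mb.

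Strict peaks, with a q under 1e-05, were then counted separately from the rest. The list gives q and fold with displaced decimal points, and the restored values are used. Strict peaks were 220 of the members (3.52%, 3.09% to 4.00%), compared with 5.98% of all peaks and 6.58% in other bins (6.28% to 6.88%). The difference of -3.06 percentage points was -1.43 against bins within 2 Mb of a dense bin and -1.28 with bins chosen by fold. Per Mb, however, they were more frequent in dense bins, 1.29 (1.12 to 1.47) compared with 0.798 (0.761 to 0.837). This held on 16 of 17 chromosomes, although narrowly on chromosome 10 (1.00 and 0.974), and was the other way on chromosome 6 with its 3 dense bins (0.667 and 0.819). Weaker peaks numbered 35.3 and 11.3 per Mb. Weaker peaks were 6036 of the 6256 members, so their ratio of 3.11 is set by the rule. That of strict peaks was 1.61 (1.40 to 1.85). Long peaks had a higher ratio. Peaks of 500 bp or more numbered 1.98 per Mb in dense and 0.381 in other bins, a ratio of 5.21 (4.59 to 5.91).

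Strict and long peaks themselves took part in the count that chose the bins. When the bins were chosen on weaker peaks alone, 152 bins had 30 or more of them. These bins held 1.25 strict peaks per Mb and the others 0.805, a ratio of 1.55 (1.34 to 1.80). When they were chosen on peaks under 500 bp alone, 143 bins held 1.92 long peaks per Mb and the others 0.405, a ratio of 4.74 (4.14 to 5.43). Both excesses were thus present without the peaks' own contribution to the choice, within the same library.

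Bins were also grouped by their number of peaks, which includes the strict and high ones, so that a part of any rise per Mb is built in. Strict peaks per Mb numbered 0.551 in bins of 1 to 9 peaks, 0.947 in bins of 10 to 19, 1.05 in bins of 20 to 29, 1.20 in bins of 30 to 39 (1.01 to 1.41) and 1.53 in bins of 40 or more (1.19 to 1.94). Each of these last intervals overlapped the one before it, but that of bins of 20 to 29 peaks (0.937 to 1.17) did not reach that of bins of 40 or more. When the bins were grouped by their weaker peaks alone, strict peaks per Mb numbered 0.711, 0.903, 0.859 (0.754 to 0.974), 1.22 (1.02 to 1.43) and 1.36 (1.01 to 1.80), with no rise from the second group to the third. Peaks with a pileup of 10 or more numbered 0.748, 1.24, 1.40, 1.48 and 1.87 per Mb over the 5 groups by all peaks. As a share of the peaks, strict peaks went the other way, from 9.03% in bins of 1 to 9 peaks through 6.86% and 4.40% to 3.57% and 3.41%. The median length went from 175 bp through 183, 194 and 202 to 212 bp. The median pileup went from 6.71 through 6.42 and 6.20 to 6.09 and 6.11, so it no longer fell within the dense set.

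**Figure D4:**
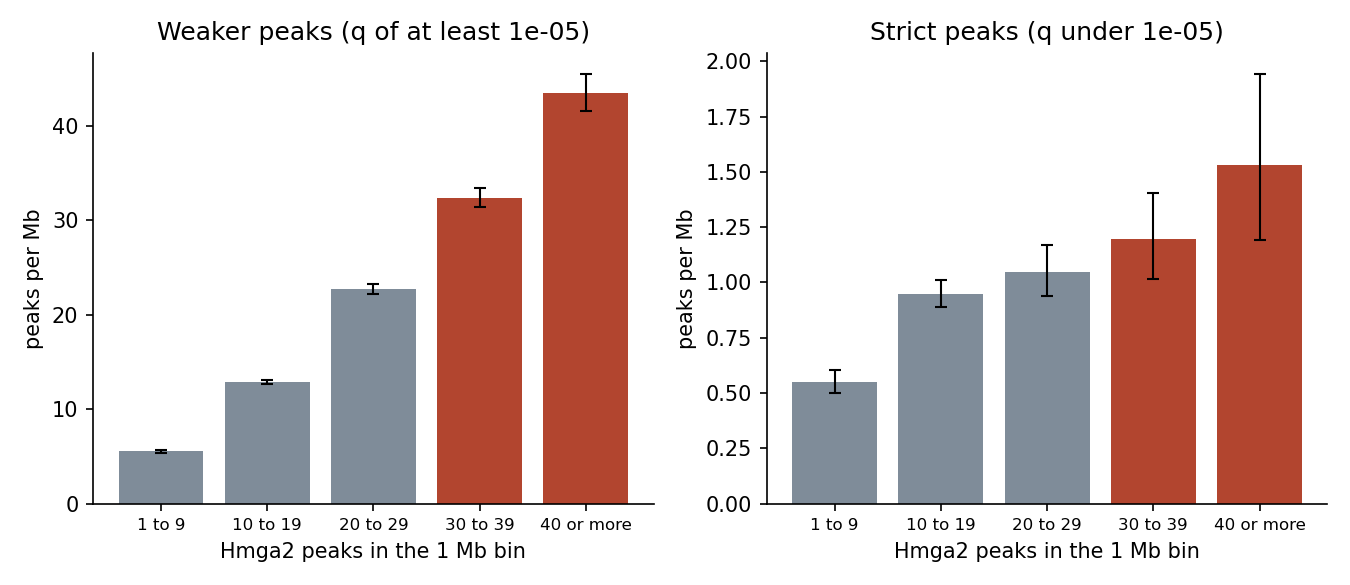
Peaks per Mb (vertical axes) in bins grouped by their number of Hmga2 peaks (horizontal axes), for weaker peaks with a q of at least 1e-05 (left) and strict peaks with a q under 1e-05 (right); red bars are dense bins and error bars exact 95% Poisson intervals for counting error. From the left to the right bar, weaker peaks go from 5.55 to 43.5 per Mb, as the grouping sets, and strict peaks from 0.551 to 1.53.

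Together the members covered 9.25 kb per Mb, or 0.925% of the dense bins, compared with 2.78 kb per Mb in other bins. The covered length was thus 3.33 times as high, more than the 3.01 times of the peak number, as the peaks were longer. Strict peaks were spread thinly: 41 dense bins had none, 72 had 1, 36 had 2, and 22 had 3 or more. The most strict peaks, 6, were found on chromosome 1 at 110000001 to 111000000, which held 43 peaks. Strict peaks in dense bins had a median pileup of 11.65 and a median length of 197 bp, compared with 12.3 and 199 bp in other bins, so the added length of the members was not seen among strict peaks.

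Spacing within the dense bins follows in part from the count. Another peak centre lay within 10 kb of 3352 members (53.6%, 52.3% to 54.8%), compared with 33.1% of all peaks and 28.1% in other bins. The median distance between successive centres in a dense bin was 17.5 kb (quartiles 7.25 and 36.4 kb), and the shortest was 0.467 kb. In bins of 10 to 29 peaks it was 35.6 kb. Distances of 1 kb or less made up 2.66% of those in dense bins (2.29% to 3.10%) and 1.48% in bins of 10 to 29 peaks.

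Distances were then divided by the mean distance of their own bin, which takes out most of the effect of the count. The shortest distances, 0.467 and 0.438 kb, were alike in both groups, and so they are a larger part of the mean in dense bins and limit their closest pairs. A distance of at most 25% of the mean was found for 22.7% of the pairs in dense bins (21.6% to 23.7%) and 23.1% in bins of 10 to 29 peaks (22.5% to 23.7%). The closest pairs, at most 10% of the mean apart, were slightly fewer in dense bins, 9.25% (8.55% to 10.01%) compared with 10.3% (9.86% to 10.7%). A distance of 3 times the mean or more was found for 5.19% and 5.22%. The coefficient of variation of the distances had a median of 1.00 (quartiles 0.914 and 1.08) in dense bins and 0.979 in the others. The shares and the coefficient of variation thus differed little and not in one direction. In dense bins 55 of 1710 windows of 100 kb were empty (3.22%), a share that follows in part from the rule, and 49 of the 171 bins had such a window. The longest distance within a dense bin had a median of 112 kb. The windows had a median of 3 peaks, and 14 of them had 10 or more. The fullest window, with 13 peaks, was on chromosome 16 at 66900001 to 67000000. It had a median pileup of 5.87 and none above 6.37.

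Beyond the dense bins the number of peaks fell over a few Mb. The median was 20 peaks in bins at 1 Mb from the nearest dense bin (quartiles 15 and 24), 15 at 2 Mb, 14 at 3 Mb and 11 at 7 Mb. It was 9 in the 1149 bins farther than 10 Mb. The share of peaks with a pileup of 10 or more was 4.33% in dense bins, 5.72% at 1 Mb (4.98% to 6.56%), 7.35% at 2 Mb and 8.61% at 3 Mb (7.36% to 10.1%). Per Mb, however, these high peaks numbered 1.58 in dense bins (1.40 to 1.79) and 1.12, 1.13 and 1.25 (1.06 to 1.47) at 1, 2 and 3 Mb, so that only the share, and not the number of high peaks, was graded over the flanks. The median length was 205, 195, 189 and 183 bp in the same order, and the share at the floor of the background 50.6%, 48.0%, 41.5% and 43.5%. A part of the fall in number follows from the rule, since every bin that is not dense is under 30 peaks. So does a part of the step in high peaks per Mb next to the dense bins, since high peaks took part in the count.

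**Figure D5:**
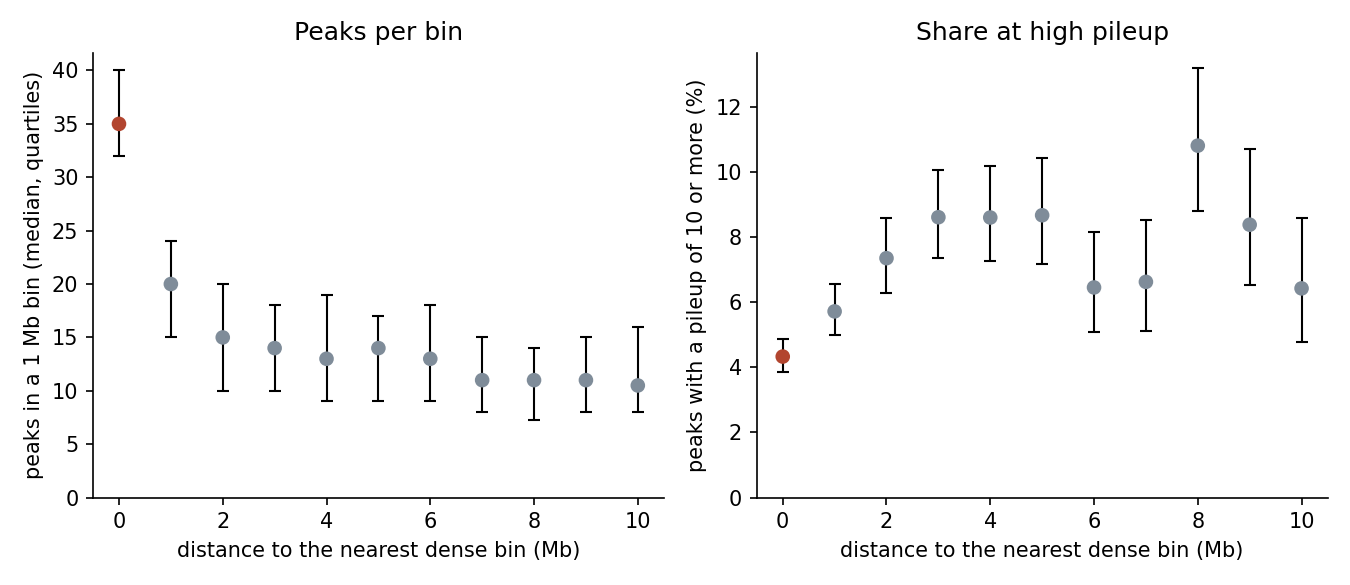
Peaks per 1 Mb bin (left, median with quartiles) and percent of peaks with a pileup of 10 or more (right, with 95% Wilson intervals for counting error) by the distance of the bin from the nearest dense bin in Mb (horizontal axes); the red point at 0 is the dense bins. The median falls from 35 to 20 and 15 peaks over the first 2 Mb, while the share at high pileup goes from 4.33% to 7.35% and then varies between 6.43% and 10.8%, as a share of all peaks and not a number per Mb.

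Isolated dense bins and those in runs were alike in pileup and strict peaks. The pooled shares of peaks at the lowest background and of long peaks were higher in runs of 3 or more. The median pileup was 6.09 in the 55 isolated bins, 6.09 in runs of 2 and 6.10 in runs of 3 or more, and the median lengths were 201, 207 and 206 bp. Strict peaks were 3.69%, 3.32% and 3.50% of the peaks, with overlapping intervals. Isolated bins held fewer peaks, 34.0 per Mb compared with 38.1 in runs of 3 or more. Their share of peaks at the floor of the background was lower, 48.2% (45.95% to 50.5%) compared with 52.9% (51.1% to 54.7%), a difference of 4.69 percentage points (1.80 to 7.57). In runs of 2 it was 49.0% (46.5% to 51.6%), near that of isolated bins. Single isolated bins ran from 3.33% to 76.7%. The intervals here, also those for long peaks, count peaks and leave out the spread between bins. A length of 500 bp or more was found for 4.60% of the peaks in isolated bins (3.74% to 5.64%), 4.87% in runs of 2 and 6.20% in runs of 3 or more (5.39% to 7.12%). The difference between runs of 3 or more and isolated bins was 1.60 percentage points (0.279 to 2.87). Within these runs the share was 5.37% in the end bins and 6.997% in the inner bins (5.82% to 8.39%), 2.40 percentage points above isolated bins (0.825 to 4.04).

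The member with the highest pileup was peak 30651, on chromosome 8 at 7510768 to 7511043. It had a pileup of 23.5 and a fold of 9.94 over its background, in a bin of 41 peaks. Next were peak 26767 at 86636581 to 86636790 of chromosome 5, which reached 19.9 and had the highest fold of these peaks, 11.3, and peak 18730 at 63004694 to 63004902 of chromosome 2, which reached 18.96. Peak 26078, at 17.8, lay in the longest run, on chromosome 5 at 57611986 to 57612195. The next, peak 8979, reached 17.6 and was found at 86488317 to 86488534 of chromosome 13. These 5 peaks were 209 to 276 bp long, so the highest members were near the median length of all members. In other bins the highest pileup was 44.2.

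The longest members were of another kind. Peak 1680, which spans 112874539 to 112875829 of chromosome 1, was 1291 bp long and reached a pileup of 6.42 and a fold of 3.71. Peak 21219, on chromosome 3 at 46993054 to 46994283 within the fifth longest run, was 1230 bp long with a pileup of 5.88. The next were peak 3105 on chromosome 10 (1116 bp), peak 584 on chromosome 1 (1096 bp) and peak 13962 on chromosome 16 (1066 bp), with pileups of 7.75, 7.64 and 5.50. None of these 5 had a q under 1e-05.

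The study's methods list primers named by 5 peak numbers. If these are the numbers of the deposited list, which was not checked by sequence, none of the 5 was a member. Of these, 2 are on chromosome 14, and the bins of those on chromosomes 12, 17 and 10 held 21, 18 and 4 peaks.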

How the data were processed

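Reads of both libraries were trimmed and mapped with BWA by the authors, who dropped ambiguous alignments. They then ran MACS2 in broad mode on the single ChIP library, with the input as control. The methods name mm9 as well as GRCm38, and the list is not on GRCm38, since 136 peaks, spread over 7 chromosomes, run past the ends that GRCm38 has. The deposited pileup is a signal, in broad mode averaged over the peak, and was used as deposited. Its unit was taken as fragments. The 3 deposited score columns (fold, p and q) hold displaced decimal points: of 103715 values with at least 4 digits, 103706 had exactly 3 decimals. The points were restored by the relation of fold, pileup and Poisson p that MACS2 uses, with q placed by its order along p. Restored and Poisson p differed by 0.473% in the median and 13.7% at most. The restoration and the choice of bins were tested on simulated data.

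On each chromosome the bins between those of the outermost peaks were counted, empty ones included. The members, measures and thresholds were chosen with earlier results of these data known. Named regions are the 8 longest runs (ties by number of peaks), the 5 fullest bins, the 5 members with the highest pileup, the 5 longest, and any peak with primers. The fullest 100 kb window and the bin with most strict peaks were named after their values were seen. A+T content, genes and sequences were planned and not run, since the builds differ. Alternatives are in the closing section. Python 3.11.15, numpy 2.4.6, pandas 2.3.3, scipy 1.17.1 and matplotlib 3.10.9 were used.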

Additional observations from a re-analysis of the deposited data

How the results depend on the processing

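Of 99 recomputed values, 58 stayed within the interval of the reported value (for the number of bins, within 1.5 times), and every difference between dense and other bins kept its direction except where the measure itself was turned round: with peaks of 500 bp or more in place of the shortest peaks the difference was 2.28 percentage points. The lowest background alone, the bins of 10 to 29 peaks, the choice of bins on peaks under 500 bp, the grouping of bins by weaker peaks and the omission of chromosome 8, which gave 8.21 for the lowest background, were chosen after seeing the data. The causes of the changes were not tested beyond what each alternative's construction shows.

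The number of dense bins was 288 with 25 or more peaks, 91 with 35 or more, 414 of 500 kb and 65 of 2 Mb. In the order 25, 35, bins shifted by 500 kb, 500 kb bins, 2 Mb bins, merged peaks, bins chosen by fold, bins chosen by q, and with chromosome 14, the share of peaks in dense bins was 29.3%, 11.5%, 18.9%, 24.3%, 14.4%, 18.2%, 17.6%, 17.7% and 21.03%. The share of dense bins beside another was 53.8% at 35, 57.9% with shifted bins, 60% in 2 Mb bins and 50.3% with bins chosen by fold, of which 110 were dense by the full count. Choosing by fold fixes the number of bins, so it gives no number of its own.

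The difference in high pileup was -2.09 percentage points with bins chosen by fold, -1.99 against bins within 2 Mb of a dense bin, -3.54 against bins of 10 to 29 peaks, -1.40 at the lowest background, and -8.76 and -0.91 at a pileup of 8 and of 15. For strict peaks it was -1.28, -1.43, -2.47 and -1.81 in the first 4 of these, and -6.46 with a fold of at least 4 in place of q. For the lowest background it was 5.89 with shifted bins, 5.17 in 500 kb bins, 6.23 in 2 Mb bins and 5.00 against bins within 2 Mb. For close neighbours it was 23.1 at 25, 27.4 at 35, 27.2 in 500 kb bins, 23.2 in 2 Mb bins, 22.4 with bins chosen by fold, 19.3 against bins within 2 Mb, 15.9 within 5 kb and 21.3 within 50 kb. The difference in the shortest length against bins within 2 Mb was -1.44, with an interval that includes 0 (-2.90 to 0.0053). No paired analysis was possible because the ChIP was made once. Single members are weakly supported: 68.9% of them had a q under 0.05, compared with 72.5% of all peaks.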
